A study of Drosophila melanogaster with 3 samples.

Results

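Deep intronic peaks of croc-eGFP were the peaks of the conservative list whose summit, the point of strongest signal in a peak, lay inside the body of a protein-coding gene, in no exon, and more than 2000 bp but at most 10000 bp from the nearest start site (TSS) of a protein-coding transcript. The rule used position only, and 623 of the 3644 peaks on the 6 chromosome arms met it, or 17.1% (95% interval 15.9 to 18.4). Applied to the thresholded list of each replicate, the same rule found 574 of 3195, 386 of 2408 and 282 of 1815 peaks for replicates 1, 2 and 3, a mean share of 16.5% ± 1.28 (SD, n = 3). All bases that meet the rule, called deep intronic sequence below, summed to 21.1 Mb and 15.8% of the arms, so the share of peaks was close to the share of sequence. Intervals are exact binomial (Clopper-Pearson) intervals that treat peaks as units.

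The samples were whole Drosophila melanogaster embryos, 0 to 18 h old, of a transgenic strain that made crocodile (croc) joined to enhanced green fluorescent protein. Chromatin had been sonicated to 200 to 800 bp and pulled down with an antibody against GFP, and the bound DNA was sequenced (ChIP-seq). There was 1 group of 3 biological replicates, and what a replicate was made from beyond that is not stated. All libraries shared the transgene, the age and the antibody, so no peak was compared with embryos lacking the fusion protein, and control libraries were not analysed here. Whole embryos mix all cell types over 18 h of development, so a peak cannot be placed in a tissue or a stage, and binding in few cells and weak binding in many cannot be told apart. The strength of a peak is given as the authors' signal value, whose scale is not stated, and it is used to rank peaks within 1 list. Values of different lists are printed side by side, but a difference between lists is not read as a difference in binding.

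Proteins of the forkhead family bind DNA through a winged-helix domain that reads an A/T-rich site with a run of T, and in the fly croc is known for its part in forming the head skeleton and pharynx. Introns of developmental genes in Drosophila often hold enhancers, stretches where transcription factors bind to set where and when a gene is on. A deep intronic peak has no promoter of an annotated protein-coding gene close by, although it can still lie near the start of a non-coding RNA.

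The sequences of 10 deep intronic peaks found in all 3 replicates show what the summits look like. Each is the summit with 100 bases to either side on the + strand of dm6, read from the RefSeq Release 6 genome, with capitals marking the forkhead consensus, the words TGTTTAC or TGTTTAT or TATTTAC or TATTTAT on either strand. The first 4 are shown because they were the strongest of the arms printed here, and 3 of them hold no copy of the consensus. Tlk encodes the Tousled-like kinase and Gug the corepressor Atrophin.
Tlk (chrX:3742122-3742322): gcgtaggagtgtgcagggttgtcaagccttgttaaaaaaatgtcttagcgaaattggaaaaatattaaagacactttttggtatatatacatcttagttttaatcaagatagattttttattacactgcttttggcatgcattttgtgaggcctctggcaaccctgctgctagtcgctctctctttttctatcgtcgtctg
Gug (chr3L:8458241-8458441): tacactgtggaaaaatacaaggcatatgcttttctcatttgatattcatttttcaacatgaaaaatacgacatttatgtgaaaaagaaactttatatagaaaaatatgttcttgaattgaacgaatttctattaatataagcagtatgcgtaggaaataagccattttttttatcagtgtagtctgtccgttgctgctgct
CG32486 (chr3L:3060700-3060900): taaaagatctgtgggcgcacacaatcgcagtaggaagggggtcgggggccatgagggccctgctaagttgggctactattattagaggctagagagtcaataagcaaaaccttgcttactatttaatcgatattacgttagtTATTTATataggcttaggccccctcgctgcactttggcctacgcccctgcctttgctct
tara (chr3R:16236856-16237056): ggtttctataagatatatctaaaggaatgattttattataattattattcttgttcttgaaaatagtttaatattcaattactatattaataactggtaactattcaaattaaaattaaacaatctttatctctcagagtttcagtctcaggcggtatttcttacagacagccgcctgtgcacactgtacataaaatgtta
The next 4 are shown because they were the strongest with the strict core TGTTTAC within 50 bp of the summit. They lie in cpo, which encodes an RNA-binding protein, Unc-115a, mbc, whose product takes part in myoblast fusion, and trio, an axon guidance gene.
cpo (chr3R:17949441-17949641): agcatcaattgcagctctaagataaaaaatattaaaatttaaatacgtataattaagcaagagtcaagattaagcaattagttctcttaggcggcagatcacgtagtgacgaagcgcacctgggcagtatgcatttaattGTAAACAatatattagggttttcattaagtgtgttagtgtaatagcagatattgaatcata
Unc-115a (chr3R:9702691-9702891): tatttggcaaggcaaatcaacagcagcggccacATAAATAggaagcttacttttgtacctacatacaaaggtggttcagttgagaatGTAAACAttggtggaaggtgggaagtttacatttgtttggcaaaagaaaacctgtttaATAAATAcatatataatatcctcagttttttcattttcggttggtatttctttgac
mbc (chr3R:23784039-23784239): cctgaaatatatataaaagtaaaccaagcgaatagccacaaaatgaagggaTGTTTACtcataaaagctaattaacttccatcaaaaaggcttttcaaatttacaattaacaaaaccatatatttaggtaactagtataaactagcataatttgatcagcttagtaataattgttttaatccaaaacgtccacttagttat
trio (chr3L:1029651-1029851): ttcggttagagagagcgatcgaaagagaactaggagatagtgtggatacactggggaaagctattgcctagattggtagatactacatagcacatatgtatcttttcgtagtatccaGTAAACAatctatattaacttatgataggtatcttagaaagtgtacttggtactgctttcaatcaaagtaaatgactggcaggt
The last 2 are shown as the strongest other peaks with none of these words in the bases shown. Raf encodes the kinase of the MAP kinase cascade and Pak3 a p21-activated kinase.
Raf (chrX:2297607-2297807): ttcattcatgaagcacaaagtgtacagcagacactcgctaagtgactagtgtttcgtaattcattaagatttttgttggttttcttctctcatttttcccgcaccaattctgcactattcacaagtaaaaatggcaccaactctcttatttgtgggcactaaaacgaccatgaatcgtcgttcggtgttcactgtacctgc
Pak3 (chr3R:16449306-16449506): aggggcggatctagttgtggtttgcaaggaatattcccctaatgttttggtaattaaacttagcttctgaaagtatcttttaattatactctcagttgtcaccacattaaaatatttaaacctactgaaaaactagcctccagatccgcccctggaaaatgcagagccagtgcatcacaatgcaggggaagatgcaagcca

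Within deep intronic sequence the peaks lay closer to start sites, more often in first introns and farther from exons than the sequence itself. A first intron of at least 1 transcript held 398 of 623 summits, 63.9% (60.0 to 67.7), while first introns made up 48.8% of deep intronic sequence. The median distance to the nearest TSS was 4289 bp against 4746 bp for the sequence, and 46.4% of the peaks lay between 2 and 4 kb from it against 39.1% of the sequence. Between 8 and 10 kb this turned around, with 66 peaks, 10.6%, and 15% of the sequence. Only 13 summits, 2.09% (1.12 to 3.54), lay within 100 bp of an exon edge, a strip that makes up 9.97% of the sequence. The start of a non-coding RNA gene was within 500 bp of 13 summits as well, 2.09% against 1.00% of the sequence. These are descriptions of 1 list against the whole of the sequence, with no test.

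**Figure D1:**
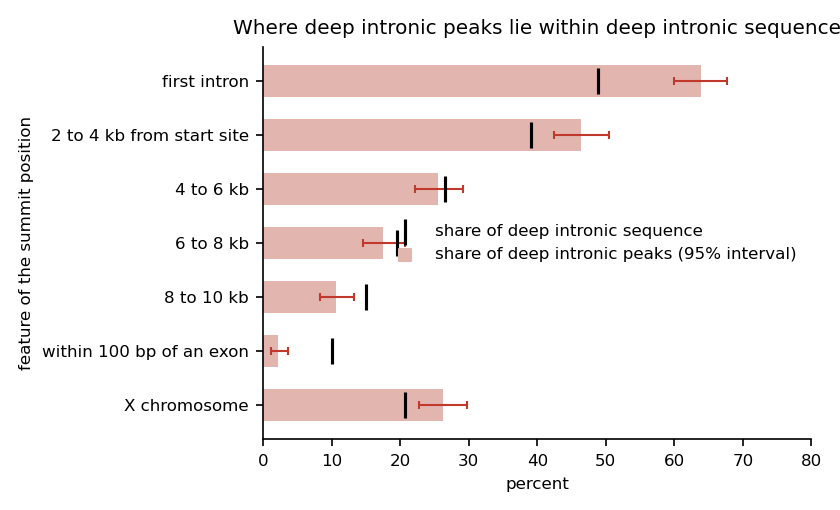
Share of the 623 deep intronic peaks with each feature (bars, with exact 95% binomial intervals) beside the share of all deep intronic sequence with it (black marks); the x axis is in percent. First introns (63.9% against 48.8%) and the X chromosome (26.2% against 20.7%) lie above the mark, and the strip within 100 bp of an exon (2.09% against 9.97%) lies below it.

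The nearest TSS belonged to a gene spanning the summit for 486 peaks, 78.0% (74.5 to 81.2), against 66.9% of the sequence. For the other peaks the nearest start belonged to a neighbouring or nested gene, so the host gene is not always the gene with the closest promoter. A summit lay downstream of the nearest TSS in 65.8% of cases and in 68.7% of the sequence, which differ by less than the interval of the peaks (61.9 to 69.5). The shortest intron holding a summit had a median of 11959 bp, against 10246 bp for the sequence, and reached 126467 bp.

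The X chromosome held more of the deep intronic peaks than of the other peaks. It carried 163 of them, 26.2% (22.8 to 29.8), and 20.7% of deep intronic sequence. In the replicate lists the X share of deep intronic peaks was 26.1%, 26.9% and 26.6% for replicates 1, 2 and 3, and that of all other peaks was 18.6%, 16.6% and 17.7%. The deep intronic share was higher in 3 of 3 replicates, by 8.93 ± 1.41 points (SD, n = 3; exact 2-sided sign-flip permutation p = 0.25, the smallest that 3 replicates can give). The sign-flip test over 3 replicates cannot pass a threshold of 0.05, so this and each later comparison is given by its size and the number of replicates showing it. Many of the same sites are in more than 1 replicate list, so the 3 values of a comparison are not independent. Neither their SD, their p nor the count of replicates therefore measures how well a difference repeats. Arm 3L held 22.3% of the peaks and 19.6% of the sequence, arms 2L, 2R and 3R held no more of the peaks than of the sequence, and chromosome 4, with 1.08% of the sequence, held 0 of the 623.

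The strongest deep intronic peak of the conservative list lay in Hr3, a nuclear receptor gene of the ecdysone response, 7886 bp from its TSS, with a signal of 1495 and rank 27 of the whole list. The summit was spanned by 3 protein-coding genes, of which Hr3 had the nearest TSS, and lay in a first intron of at least 1 transcript. The signal of this peak in the lists of replicates 1, 2 and 3 was 613, 556 and 320, where it ranked 25, 30 and 33. The Tlk peak was next, with a signal of 1490 and with 556, 616 and 319 in the replicates. The Hr3 peak had the higher signal of the pair in replicates 1 and 3 and the Tlk peak in replicate 2, so their order changed between replicates.

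Below them came peaks in CG12769 (signal 1293), in Gug (1099), in CG32486 (1009) and in tara (949). The peak in simj, which encodes a subunit of the NuRD chromatin remodeller, had 930, that in aos, a secreted inhibitor of the EGF receptor, 910, and that in Raf also 910. The 15 strongest peaks found in all 3 lists ended with Pak3 (859), shn (824), a zinc-finger gene of the BMP pathway, the forkhead gene CHES-1-like (788), the phosphatase gene Ptp61F (723), Pli (722), which encodes Pellino, and ImpL2 (718), a secreted insulin-binding protein. In all 15 the lowest signal was that of replicate 3, whose list also had the lowest top signal (598 against 1342 and 1207).

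Ranks moved between replicates as well, in lists of different lengths. The Gug peak ranked 56, 90 and 54 in replicates 1, 2 and 3, the CG32486 peak 93, 93 and 71, the aos peak 92, 88 and 220, and the Pak3 peak 110, 66 and 159. Of the 15, 11 lay in a first intron.

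**Figure D2:**
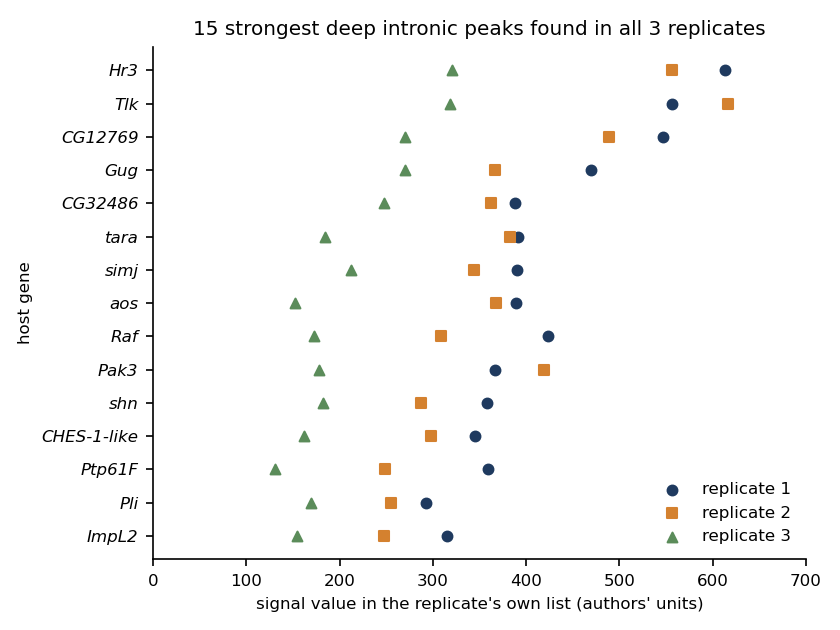
Signal value, in the authors' units, of the 15 strongest deep intronic peaks found in all 3 replicates, 1 line per host gene and 1 point per replicate list. Replicate 3 is lowest for every peak, from 320 for Hr3 to 131 for Ptp61F, and the largest value on the axis is 616, for Tlk in replicate 2.

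Deep intronic peaks were found in all 3 replicates less often than the list as a whole. A summit within 250 bp was present in all 3 thresholded lists for 235 of the 623 peaks, 37.7% (33.9 to 41.7), against 43.6% of all 3644 peaks. The conservative list was made from files of all replicates, so this sharing is partly built in. A further 180 peaks were found in 2 lists, 144 in 1 and 64 in none. The lists of replicates 1, 2 and 3 held 85.1%, 64.8% and 44.1% of the peaks, which follows the order of the lengths of the lists.

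Sharing followed signal. The median signal was 304 for peaks in 3 lists, 172 for those in 2, 134 for those in 1 and 113 for those in none. Of the strongest quintile of the peaks 97.6% were in all 3 lists, and of the next quintiles 70.2%, 14.4%, 0.806% and 5.6%. The weakest quintile was of another kind: 70 of its 125 peaks were shoulders, with a stronger summit of the same list within 384 bp, the median peak width, so that a replicate peak of the neighbour could count for them. There were 72 shoulders in all, and without them 226 of 551 peaks, 41.0%, were in 3 lists.

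Most peaks absent from a thresholded list were present lower down. The ranked lists, which hold peaks above and below the threshold, had a summit within 250 bp for 614, 613 and 578 of the 623 peaks in replicates 1, 2 and 3, and 570 peaks, 91.5%, were in all 3 ranked lists. Of the 64 peaks in no thresholded list, 55, 55 and 53 were in the ranked lists.

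Within each replicate list, deep intronic peaks were shared with both other replicates in 40.2%, 59.3% and 81.2% of cases for replicates 1, 2 and 3. Peaks of near-start introns, more than 500 and at most 2000 bp from a TSS, were shared in 47.5%, 68.1% and 83.6%. The deep peaks were lower in 3 of 3 replicates, with a mean difference of −6.15 points (SD 3.35, n = 3; exact sign-flip permutation p = 0.25). The difference was −3.28 points among the strongest 50% of peaks and −3.93 with 1 start site per gene, each with an exact p of 0.5. They were also lower than promoter peaks, within 500 bp of a TSS, with a difference of −9.33 points (SD 7.40), and higher than intergenic peaks at the same distances by 2.54 points (SD 1.00), each in 3 of 3 replicates. Sites shared by all 3 lists are largely the same sites in each list, set over lists of different length. The 3 differences in sharing are thus not independent, and neither their SD, their p nor the count of replicates measures how well they repeat. Signal differed from near-start introns in the same direction: the median percentile of deep intronic peaks in their own list was 49.1, 44.9 and 42.5, and that of near-start introns 50.8, 52.4 and 48.4. Against intergenic peaks the percentile was higher in 2 of 3 replicates, by 9.19 and 3.76 points in replicates 1 and 2 with −0.358 in replicate 3. Whether the lower sharing goes with the lower signal was not tested.

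**Figure D3:**
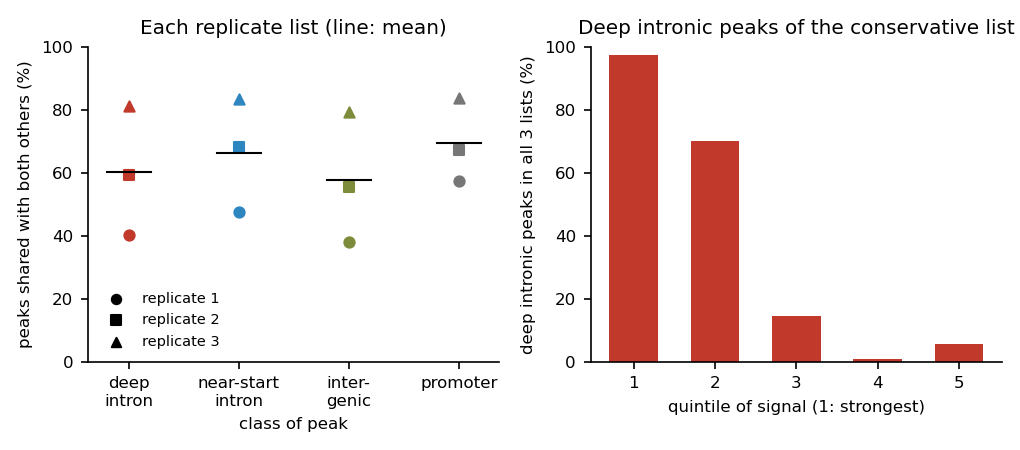
Left, percent of the peaks of each replicate's thresholded list with a summit within 250 bp in both other replicates, by class of peak (1 point per replicate, line at the mean). Right, percent of the 623 deep intronic peaks found in all 3 lists, by quintile of signal, falling from 97.6% in the strongest to 0.806% in the next to weakest and 5.6% in the weakest.

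Summits of deep intronic peaks were islands of A and T. Within 50 bp of the summit 67.8% of the bases were A or T, against 57.6% in windows 500 bp to either side and 59.7% ± 9.19 (SD over positions) in all deep intronic sequence. In the replicate lists the excess over the flanks was 11.8, 11.4 and 10.7 points for replicates 1, 2 and 3 (mean 11.3 ± 0.527 SD, n = 3, above 0 in 3 of 3; exact sign-flip permutation p = 0.25). The 2227 peaks of the pooled ranked list that lay in the same sequence but below the threshold had 59.3% at the summit and 58.6% in the flanks.

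The island was bordered by sequence poorer in A and T. Between 150 and 350 bp from the summit the A/T content was 54.4%, 54.3% and 54.2% in the deep intronic peaks of replicates 1, 2 and 3, lower than the 60.2%, 60.0% and 59.8% found at 700 to 1000 bp. Near-start introns had the same shape, with 55.1% and 59.1% on average, and so had intergenic peaks, with 53.3% and 58.7%. Promoter peaks did not, with 56.1% at 150 to 350 bp and 54.8% at 700 to 1000 bp. This dip was noticed in the profile and has no test.

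**Figure D4:**
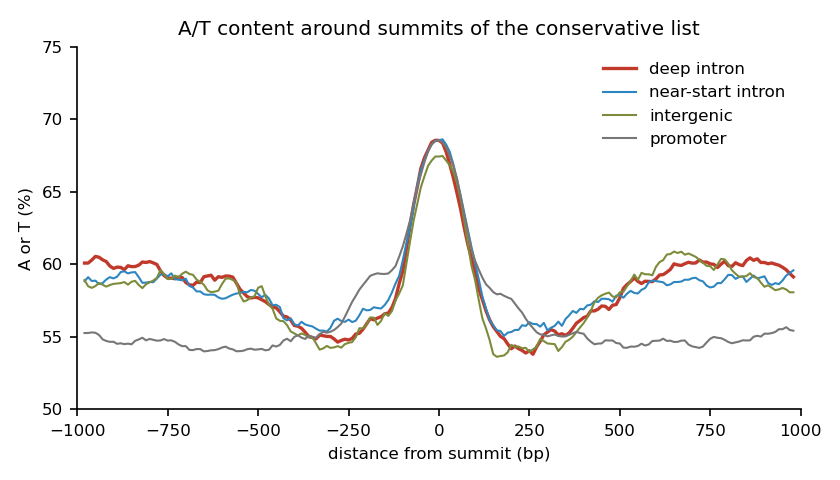
Mean percent of A or T by distance from the summit for the 4 classes of peak in the conservative list, as a running mean over 5 steps of 10 bp. All 4 rise to a peak of similar height at the summit, and deep introns, near-start introns and intergenic peaks dip at 150 to 350 bp (55.0% for deep introns) before reaching their surroundings (59.9%).

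At the summit the classes had nearly the same A/T content. Deep introns had 69.5% on average in the replicate lists, near-start introns 69.3% and promoters 69.6%. The excess of the deep introns over near-start introns was 0.517, 0.260 and −0.176 points in replicates 1, 2 and 3, a difference within the replicate spread (mean 0.200 ± 0.350 SD, n = 3). Against promoters the difference was −4.15 points (SD 1.56, 3 of 3 replicates), where the flanks were less A/T-rich.

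The weakest quintile of signal, in which 70 of 125 peaks were shoulders, showed no island on average. By quintiles of signal from the strongest, the A/T content was 70.4%, 70.2%, 69.5%, 69.1% and 59.9%. The last value is close to the 59.7% of all deep intronic sequence, and that quintile holds 70 of the 72 shoulders. Whether its peaks other than shoulders had the island was not tested. There were 98 peaks below the median of the sequence, with a median signal of 95, and 121 peaks, 19.4%, above its 95th percentile.

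The share of summits with the forkhead consensus was close to that of deep intronic sequence of the same A/T content. The consensus lay within 50 bp of the summit in 144 of 623 peaks, 23.1% (19.9 to 26.6), against 23.6% of all peaks of the list, 14.4% of the flanks and 15.4% of all windows of that length in deep intronic sequence. When those windows were weighted to the A/T content of the peaks, 24.2% held it. In replicates 1, 2 and 3 the share was 23.7%, 25.9% and 24.5%, above the flanks by 10.9 ± 1.25 points on average (SD, n = 3; 3 of 3 replicates, exact sign-flip permutation p = 0.25). The other 479 peaks had no copy in that window.

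The strict core TGTTTAC was rare, in 16 peaks or 2.57% (1.47 to 4.14), against 2.44% of all peaks and 2.57% of the weighted windows. Among the peaks with 0, 1 and 2 copies of the consensus the median signal was 175, 191 and 203, and the share found in all 3 lists was 35.1%, 44.7% and 55.6%. The last group is small, at 18 peaks, and the order is a description of this list. By quintiles of signal from the strongest, the share with the consensus was 25.6%, 28.2%, 23.2%, 23.4% and 15.2%. It was thus clearly lower only in the weakest quintile, which holds most of the shoulders. Whether copies and signal go together without the shoulders was not tested.

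Other words were searched on both strands, and several were less frequent at the summits than in the flanks. The GAGA word GAGAGAG, bound by the product of Trl, was in 7 peaks, 1.12%, against 3.53% of the flanks and 1.31% of the sequence, and below the flanks in 3 of 3 replicates. In windows weighted to the A/T content of the peaks its share was 0.766%, so it was not below sequence of like composition. A run of CACACACA was also in 7 peaks, against 4.57% of the flanks, 2.85% of the sequence and 1.46% of the weighted windows. The replication-related element TATCGATA was in 0 of 623 peaks, 0.169% of the sequence, 0.243% of the weighted windows and 2.23% of the promoter peaks. The E-box CAGCTG was in 14 peaks, 2.25%, against 4.33% of the flanks, 3.79% of the sequence and 2.09% of the weighted windows. The E-box CATATG was in 29, 4.65%, against 3.93%, 3.18% and 3.47%. The homeodomain word TAATTA was in 68 peaks, 10.9%, above the 6.90% of the flanks but below the 12.6% of the weighted windows. AGATAAG, read by GATA factors, was in 13 peaks, 2.09%, against 1.44% of the flanks and 1.45% of the weighted windows. An absent word says only that its letters were not in these windows.

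A search in wider windows put first a word that was none of these. All words of 8 letters were counted within 100 bp of the 623 summits and in windows 700 and 1000 bp to either side, and CACTGAGA came first, in 38 peaks, 6.10%, against a mean of 0.722% of the outer windows. Close behind were TACACTGA in 35 peaks and ATGCACTG in 31, which share letters with it, so the 6 letters ACACTG were counted as well. Both words were chosen after the search, on these peaks, so their frequency here is a description with no test. Words of A and T alone, ranked lower in the search, were in more peaks. AATATTTA was in 70, 11.2% against 4.21% of the outer windows, and ATATTAAA in 66, 10.6% against 3.33%. The windows of the search differ from those used for the words above, so the shares are not like for like. Within 150 bp of the summit CACTGAGA lay in 57 deep intronic peaks, 9.15% (7.0 to 11.7), against 0.883% of windows 1000 bp away and 1.08% of all such windows in deep intronic sequence. It was in 6.63% of near-start intron peaks, 13.1% of intergenic peaks and 2.98% of promoter peaks.

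The direction of the word was not used in the search, and most copies faced the summit. A copy was counted as facing when reading the word from its first letter led towards the summit, on whichever strand. Of 58 copies of CACTGAGA within 150 bp, 49 faced the summit and 9 faced away. Without the shoulders, 49 of 51 copies faced the summit, and in the weakest quintile of signal, where shoulders dominate, 1 of 8 did. Of 210 copies of ACACTG, 158 faced the summit and 52 faced away. The facing copies lay at a median of 74.5 bp from the summit for the long word and 86.5 bp for the short one, at the edge of the A/T-rich island. Between 50 and 125 bp there were 123 facing copies of the short word and 29 facing away.

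**Figure D5:**
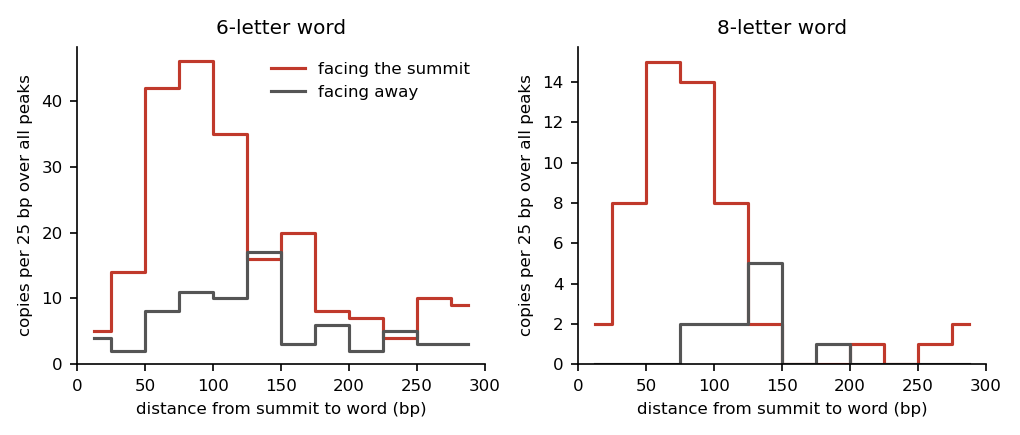
Number of copies of each word by distance from the summit in steps of 25 bp, over the 623 deep intronic peaks, split by whether the copy faces the summit (red) or away from it (grey). Facing copies of the 6-letter word reach 46 at 75 to 100 bp, where 11 face away, and those of the 8-letter word reach 15 at 50 to 75 bp, where 0 face away.

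Other classes of peak, on which the words were not chosen, had the same direction. The long word faced the summit in 30 of 37 copies in near-start introns, 46 of 49 in intergenic peaks and 39 of 45 at promoters. Of the copies of the short word 77.7%, 77.4% and 59.3% faced the summit in these classes, against 75.2% in deep introns, so the direction was least marked at promoters. Of the peaks of the ranked list that lay in deep intronic sequence below the threshold, 3.46% held the word, and 55 of 78 copies faced the summit. The words are thus not particular to deep introns.

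The strongest peak with the short word facing in from both sides was that of Gug, already printed above, with copies 96 bp before and 76 bp after the summit. There were 18 such peaks. The next 2 strongest found in all 3 replicates are shown to make the arrangement visible, as 241 bases of the + strand of dm6 with capitals marking the copies that face the summit. They lie in Rbfox1, which encodes an RNA-binding protein, and in msn, which encodes the kinase Misshapen. Both peaks were chosen after their values were seen.
Rbfox1 (chr3L:10554594-10554834): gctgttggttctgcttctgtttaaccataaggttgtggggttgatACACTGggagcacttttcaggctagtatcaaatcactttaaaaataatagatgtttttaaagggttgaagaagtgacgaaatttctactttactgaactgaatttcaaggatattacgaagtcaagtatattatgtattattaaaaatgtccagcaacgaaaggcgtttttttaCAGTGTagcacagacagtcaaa
msn (chr3L:2581337-2581577): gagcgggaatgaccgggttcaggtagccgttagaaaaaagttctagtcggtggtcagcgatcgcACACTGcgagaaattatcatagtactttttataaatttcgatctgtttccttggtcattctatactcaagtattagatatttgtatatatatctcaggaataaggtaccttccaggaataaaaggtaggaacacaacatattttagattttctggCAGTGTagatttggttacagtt

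The peaks were spread over many genes, with a few holding several. The 623 peaks lay in 383 host genes when each was counted for 1 gene, and 395 of 4331 protein-coding genes with deep intronic sequence spanned at least 1, or 9.12%. There were 244 hosts with 1 peak, 81 with 2 and 58 with 3 or more, the last holding 217 peaks. When peaks within 384 bp of each other were joined, 551 separate sites remained. The share of genes that held a peak followed the length of their deep intronic sequence: 2 of 1970 genes with up to 1 kb, 71 of 1016 with 1 to 5 kb, 103 of 664 with 5 to 10 kb, 112 of 422 with 10 to 20 kb and 107 of 259, or 41.3%, with more than 20 kb.

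Raf held the most peaks, 7 in 16.8 kb of deep intronic sequence, or 41.8 per 100 kb against 2.95 per 100 kb over all such sequence. The strongest had a signal of 910 in the conservative list and of 423, 309 and 173 in replicates 1, 2 and 3. The second had 656 and, in the replicates, 287, 229 and 125. Of the 7, 6 were in all 3 replicate lists, and the seventh was in those of replicates 1 and 2. The first 5 followed each other 2241, 3733, 5247, 6825 and 8661 bp downstream of the Raf start site, and none of the 7 held the forkhead consensus within 50 bp of its summit. Their A/T content ran from 57.4% to 72.3%.

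The other hosts with most peaks had fewer in all 3 lists. In tou, a chromatin gene on 2R, 6 peaks lay in 15.8 kb, 38.0 per 100 kb, but 2 of them were shoulders. The 2 found in all 3 lists were a peak and its shoulder, which matched the same replicate peaks. CG1677, with 6 peaks in 67.6 kb, and the teneurin gene Ten-a, with 6 in 111 kb, had 3 and 2 in all 3 lists and kept 5 and 4 peaks without shoulders. The 6 peaks of CG1677 were nearest to the start sites of other genes: 3 to unc-119, 2 to brk and 1 to CBP. Then came shn with 5 peaks, strongest 824, and kirre, a myoblast fusion gene of the immunoglobulin family, with 5, strongest 656, of which 4 were not shoulders.

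Among 17 lists of genes, those of the forkhead family, EGF receptor signalling, BMP signalling and GATA factors had the most peaks per length of deep intronic sequence. Shoulders are counted as peaks in these lists. Counts are set beside the 9.12% of all genes with deep intronic sequence and, since longer genes hold more peaks, beside the count that the shares of all genes of like length would give. Of 7 forkhead genes with such sequence, 3 held 7 peaks, 24.4 per 100 kb, where the shares of all genes would give 0.580 genes. CHES-1-like had the strongest, with a signal of 346, 298 and 162 in replicates 1, 2 and 3, and jumu had 276 in the conservative list and was also in all 3 lists. The third was bin, whose peaks were in no thresholded replicate list. Without shoulders jumu kept 2 of its 3 peaks and bin 1 of its 2, the latter in 653 bp of deep intronic sequence.

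Of 16 genes of the EGF receptor pathway, 6 held 19 peaks, 13.6 per 100 kb, where 2.60 genes would be given by length. Besides Raf with its 7 peaks, aos had a peak that was in all 3 lists with 389, 367 and 152. It was 1 of the 3 peaks with 3 or more copies of the forkhead consensus near the summit. The other hosts were aop, an Ets repressor with a top signal of 584, S (345), edl (158) and the receptor gene Egfr itself (143), whose strongest peak was in replicate 1 only.

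Of 12 genes of the BMP pathway 5 held 13 peaks, 9.73 per 100 kb, against 2.30 genes by length. After shn the strongest peaks lay in Dad, an inhibitory Smad (458), and in the ligand gene dpp (363), both in all 3 lists, and then in sog (268), a ligand antagonist, and dally (254), both in replicates 1 and 2. Of 21 genes of wingless and hedgehog signalling 7 held 15 peaks, 7.76 per 100 kb, against 3.30 genes by length, led by the coreceptor gene arr (387) and the Wnt inhibitor nkd (377). Of 9 Notch pathway genes 1 held peaks, 2.61 per 100 kb, against 1.82 genes by length: the coactivator gene mam, with 3 peaks and a top signal of 535.

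Of 18 ecdysone response genes 6 held 15 peaks, 5.43 per 100 kb, against 4.22 by length, and 5 of the 6 had one in all 3 lists. Hr3 led them and the nuclear receptor gene Hr4 followed with a top signal of 688. Of 22 basic helix-loop-helix genes 9 held 14 peaks, 7.27 per 100 kb, against 3.64 by length, but only crp (351) and Mnt (333) had one in all 3 lists. All 6 GATA factor and cofactor genes had deep intronic sequence, and 2 held 6 peaks, 10.9 per 100 kb, against 0.864 by length. They were ush, a cofactor, with 4 peaks and a top signal of 333, and grn with 2, or 1 without shoulders. The grn peaks were in no thresholded replicate list. Of 22 Polycomb and trithorax group genes 4 held 5 peaks, 7.48 per 100 kb, against 1.51 by length, the strongest in trx (676) and Psc (529).

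The other lists were near the count given by length or below it. Of 62 genes of axon guidance and neuronal adhesion 18 held 39 peaks, 3.32 per 100 kb, against 15.3 by length, led by kirre (656) and beat-Ib (595). For the mesoderm and heart 5 of 23 held 13 peaks against 4.19 by length, with kirre and how (255) the strongest, and for glial and neural fate 5 of 19 held 7 against 3.79, with grh (581) and ttk (190). Tracheal genes had 3 of 17, with rib (445) and trh (154), against 2.49, and Hox genes had 2 of 8, Antp (237) and Abd-B (173), against 1.72. Homeodomain genes outside the Hox complexes had 6 of 48 against 8.41, with ct (305) and NK7.1 (229) the strongest. Muscle structural genes had 1 of 15, the integrin gene if (250), against 2.16, and none of 5 gap and pair-rule genes with deep intronic sequence held a peak, against 0.842. The lists share genes such as kirre, bin, trh and twi, so their counts are not independent.

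The limits of the rule cut through a continuous set of peaks. Just inside the 2000 bp limit lay peaks in fra (2007 bp, signal 189) and NFAT (2009 bp, 209), and just outside it those in CG3764 (1998 bp, 318) and pum (1992 bp, 110). Just inside the 10000 bp limit lay peaks in nmo (9983 bp, 269) and Hr4 (9979 bp, 504), and just outside it those in Efa6 (10003 bp, 297) and bab2 (10140 bp, 245). The croc gene itself has no intron, so it could hold no deep intronic peak.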

How the data were processed

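Peak lists on dm6, made with the irreproducible discovery rate (IDR), a measure of how well peak ranks repeat between lists, were analysed; build and method are per the deposited file listings. The aligner's and caller's names and versions were not given in the sources used here. Signal values are the authors', one for each peak; their scale is not stated, and they were used to rank peaks within a list. The score deposited with each peak is the scaled IDR score and was not compared. Library depth is unknown, and peaks under the authors' threshold count as absent from the thresholded lists.

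Summits were classified with the Ensembl release 115 annotation of BDGP6.54, using exons of every annotated gene. Of 13945 protein-coding genes, 13944 had the same coordinates in RefSeq Release 6, from which sequences were read. A summit within 250 bp counted as shared. A/T content and words were taken within 50 bp of a summit and in flanks 500 bp away. Classes were compared within each replicate, and the 3 differences were tested by an exact 2-sided sign-flip permutation test. Intervals cover counting error only. Python 3.11.15, numpy 2.4.6, pandas 2.3.3 and scipy 1.17.1 were used, and word counts, sharing and the sign-flip p were tested on simulated data with planted or known answers.

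Members and gene lists were chosen with earlier results of these data known. Genes named were croc, hosts of the 15 strongest peaks in all 3 replicates, the 6 hosts with most peaks, the 2 genes of each list with the strongest peak, peaks nearest the distance limits and hosts of the sequences shown. Any other gene was named with its values in view. The alternatives tried were other start sites, exons, distances, windows, flanks, peak subsets and leaving out each replicate.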

Additional observations from a re-analysis of the deposited data

How the results depend on the processing

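Over 11 results and 13 settings, 4 of 95 alternative values reversed, 11 moved beyond the replicate spread, interval or count limit, and the others kept their direction but not always their size. Counting 1 start site per gene gave a share of 20.1% of the conservative list and 19.7% of the replicate lists, and the strongest 50% of peaks gave 14.8% of the replicate lists. With 1 start site per gene, 731 peaks met the rule and 496 genes held one. With the strongest 50%, 74.1% of the deep intronic peaks were in all 3 replicates and 234 genes held one. With each replicate left out in turn, the share and the genes were counted only over peaks of the conservative list found in both remaining replicate lists. This left 238, 264 and 383 deep intronic peaks without replicates 1, 2 and 3, with shares of 14.6% to 16.8% and 177 to 270 genes. The main values, 17.1% and 395 genes, need no sharing, so they are not like for like. Of the 623 peaks, 38.2% to 61.5% were in both remaining lists, where the main value asks for all 3. The difference in A/T excess from near-start introns, 0.200 points, reversed to −0.0809 with 1 start site per gene, −0.152 with windows of 25 bp and −0.707 with flanks at 1000 bp. The difference in forkhead excess from near-start introns, 3.02 points, lay in the flanks rather than at the summits. Deep and near-start introns had the consensus at 24.7% and 24.6% of summits on average in the replicate lists, and in 13.8% and 16.7% of flanks. This difference reversed to −0.0142 with windows of 25 bp and was 1.08 with windows of 100 bp. It was 0.495 with the core alone and 1.48 without replicate 3. The forkhead share at deep intronic summits over their flanks, 10.9 points, was 5.54 with windows of 25 bp and 1.23 with the core alone. The sharing difference, −6.15, was −3.28 and the signal rank difference, −5.02, was −10.1 with the strongest 50%, and the sharing difference was −3.93 with 1 start site per gene. The cause of these changes was not tested. Depth is unknown, so absence from a list is not absence of binding.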
